A study of Mus musculus with 28 samples.

Results

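The lysosome genes described here are 41 members of 3 kinds: the acid hydrolases and their helpers of the lysosome interior, the proteins of the lysosome membrane, and the subunits of the V-ATPase, the pump that acidifies it. The rule uses no measured value: each member is a row of the count tables whose gene symbol is on a list of names. All 41 were found among 17690 gene rows, and 35 of them had a row in every library table. The cells came from the subependymal zone (SEZ) of adult mice, a stem cell niche along the lateral ventricles. They were sorted singly into wells and profiled by SORT-seq, a plate form of CEL-seq that tags each mRNA molecule at its 3′ end, so that a level does not grow with transcript length.

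All mice were of strain Bl/6, and 7 sorts were made with 4 libraries each. Troy-GFP cells were the GFP+ cells of the Troy-GFPiresCreER strain, in which the gene of the receptor Troy (Tnfrsf19) drives GFP, from mice of 8 to 10 weeks. Ki67-RFP cells were the RFP+ cells of the Ki67tagRFP strain, which marks the cell-cycle protein Ki67, at 8 to 10 weeks. The tdTomato cells came from Ki67iresCreER;Rosa-tdTomato mice given tamoxifen once at 5 mg, so that cells with active Ki67 at that time, and their progeny, were labelled for good. They were taken 2 days later (tdTomato-d2, 8 to 10 weeks) or 60 days later (tdTomato-d60, 16 to 19 weeks). A mixed day-60 sort (8 to 19 weeks) joined tdTomato+ cells of the SEZ or olfactory bulb with O4+ oligodendrocytes. GLAST-EGF cells bound an antibody to GLAST, labelled EGF, or both, and Prom1-CD24 cells were picked by their staining for PROM1 and CD24, both at 8 to 10 weeks. The labels give no number of mice behind a library, and each library is 96 wells, so the spread between libraries, and with it every p-value, may be technical. Age and sort cannot be told apart where day 60 is compared with another sort.

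Lysosomes break down proteins, sugars and lipids with hydrolases that work at acid pH. The V-ATPase keeps that pH by moving protons through its membrane ring, V0, with the energy of ATP split by its cytosolic part, V1. Among the members most described here, annotated on GRCm38 in GENCODE M21, Cst3 lies at chr2:148871722-148875692, Tpp1 at chr7:105744811-105752235, Ctsd at chr7:142375911-142388038, Psap at chr10:60277627-60302597, Gaa at chr11:119267887-119285454, Lamp1 at chr8:13159161-13175338 and Atp6v1g1 at chr4:63544772-63550750, and the levels count transcripts over the whole gene. In the adult SEZ, quiescent neural stem cells (NSCs) have been described as rich in lysosomes compared with their activated, dividing progeny, and microglia, the phagocytes of the brain, are known for high cathepsin levels. Many of their genes carry E-box motifs near their start site that are bound by TFEB, a transcription factor of lysosome formation.

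RefSeq promoters on GRCm38.p6, each from 250 bases before to 50 after a start site, were at hand for 34 of the 41 members, 40 promoters in all. Ctsb, Npc1, Laptm4b, Asah1, Atp6v1b2, Atp6v1g1 and Atp6v1h had no entry. The E-box core CACGTG, which reads the same on both strands, stood in 12 of the 40 promoters (30%) and in 7.15% of 32851 promoters of all genes. Its longer form TCACGTGA, which contains CACGTG, stood in 7 of 40 (17.5%) against 0.974% of all promoters. The full palindrome of the CLEAR element, the TFEB motif, contains both and stood in 0 of 40 against 0.326%. By gene, 12 of 34 members held CACGTG (35.3%), against 8.09% of all genes: Ctsa, Ctsd, Ctsl, Gaa, Gla, Glb1, Lamp1, Mcoln1, Atp6v0b, Atp6v0d1, Atp6v0e and Atp6v1a. Windows of 80 bases upstream of the start site are shown for 6 of these genes, because they span hydrolases, membrane proteins and both parts of the pump. Those of Lamp1 and Atp6v0b end at the base before the start site, and the others end 16 (Mcoln1), 56 (Ctsd), 89 (Atp6v1a) and 98 (Gaa) bases before it. They are written 5′ to 3′ on the strand of the gene, with CACGTG in capitals. Ctsd lay at chr7:142387883-142387962 (minus strand), Gaa at chr11:119267786-119267865 (plus), Lamp1 at chr8:13159081-13159160 (plus), Mcoln1 at chr8:3500424-3500503 (plus), Atp6v0b at chr4:117887330-117887409 (minus) and Atp6v1a at chr16:44139348-44139427 (minus).
Ctsd: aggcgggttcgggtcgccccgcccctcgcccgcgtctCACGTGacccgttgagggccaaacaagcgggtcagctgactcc
Gaa: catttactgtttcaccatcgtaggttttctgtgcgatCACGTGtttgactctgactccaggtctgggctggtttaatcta
Lamp1: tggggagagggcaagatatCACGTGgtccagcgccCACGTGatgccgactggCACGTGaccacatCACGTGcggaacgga
Mcoln1: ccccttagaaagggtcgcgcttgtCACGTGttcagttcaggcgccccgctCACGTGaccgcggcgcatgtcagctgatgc
Atp6v0b: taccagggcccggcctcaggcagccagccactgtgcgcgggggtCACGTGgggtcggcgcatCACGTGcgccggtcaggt
Atp6v1a: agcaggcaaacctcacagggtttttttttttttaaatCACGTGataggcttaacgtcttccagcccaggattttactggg
The Lamp1 window holds the core 4 times within its 80 bases, and the Mcoln1 and Atp6v0b windows hold it 2 times each. A match is a description of the sequence and shows no binding. Members with the core include genes that differed strongly between tdTomato-d60 and tdTomato-d2 (Ctsd, Gaa, Lamp1). They also include some that did not pass the test there (Atp6v0e and Atp6v1a) and some not tested (Gla, Glb1 and Mcoln1). Cst3, Tpp1, Cd63 and Psap also differed strongly, and their promoters lacked the core. A link between the motif and the differences was not tested.

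Of 2688 wells, 1789 held at least 1000 estimated transcripts and were taken as cells, 11 to 89 per library, with 43149 to 572793 transcripts in the cells of a library. Cells were clustered without the 41 members and other lysosome genes (196 genes in all), and clusters were named from fixed markers. The name NSC-like covers quiescent NSCs and astrocytes, which these markers do not tell apart. Most Troy-GFP cells (214 of 311) and tdTomato-d60 cells (289 of 349) were NSC-like, whereas Ki67-RFP cells were progenitor-like (176 of 315) or neuroblast-like (118), and tdTomato-d2 cells were neuroblast-like (160 of 220) or progenitor-like (46). The 15 NSC-like markers summed to 27700 to 29500 CPM (transcripts per 1000000) in Troy-GFP libraries and to 865 to 1210 CPM in Ki67-RFP libraries. Y-linked genes summed to 290 to 422 CPM in the GLAST-EGF and Troy-GFP libraries and stood at 0 in the other 5 sorts, so sex moved with these sorts and its part in the differences between them was not tested. A cluster led by gut and liver genes held 36 cells, 24 of them in library 2 of Troy-GFP, and stayed unnamed. Libraries 1 and 2 of Troy-GFP and 3 and 4 of GLAST-EGF were read on 1 flow cell, and the other libraries with a named flow cell on another. The 4 tdTomato-d2 libraries had no flow cell named, so whether they shared a run with any other sort is not known.

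Many hydrolases and membrane proteins of the lysosome had their highest mean in the astroglia-rich tdTomato-d60 sort and their lowest in the dividing and newly divided cells, while the V1 subunits of the pump had their highest in the mixed sort or tdTomato-d2. Cst3, which encodes the secreted cysteine protease inhibitor cystatin C, stood at 9420 ± 777 CPM in tdTomato-d60 and 6420 ± 991 in Troy-GFP (SD, n = 4 libraries). It was lower in GLAST-EGF (2810 ± 106), Prom1-CD24 (2470 ± 452), the mixed sort (1450 ± 402), tdTomato-d2 (1270 ± 304) and Ki67-RFP (914 ± 132). In that order the SD ranges of GLAST-EGF and Prom1-CD24 overlapped, as did those of the mixed sort and tdTomato-d2 and of tdTomato-d2 and Ki67-RFP. Psap, the precursor of the saposins that hand lipids to hydrolases, ran from 1120 ± 112 in tdTomato-d60 through 719 ± 92.3 in Troy-GFP to 199 ± 23.7 in Ki67-RFP. Lamp1, the main glycoprotein of the lysosome membrane, had its highest mean in the mixed sort (1090 ± 92.2), followed by tdTomato-d60 (828 ± 39.8) and Troy-GFP (700 ± 69.8). Among V1 subunits, Atp6v1a, the catalytic subunit, stood at 160 to 208 CPM in 5 of the sorts, with 278 ± 86.2 in tdTomato-d60 and 521 ± 63.4 in the mixed sort. These are sums over cells, in which fewer cells of a type and less RNA per cell cannot be told apart.

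**Figure D1:**
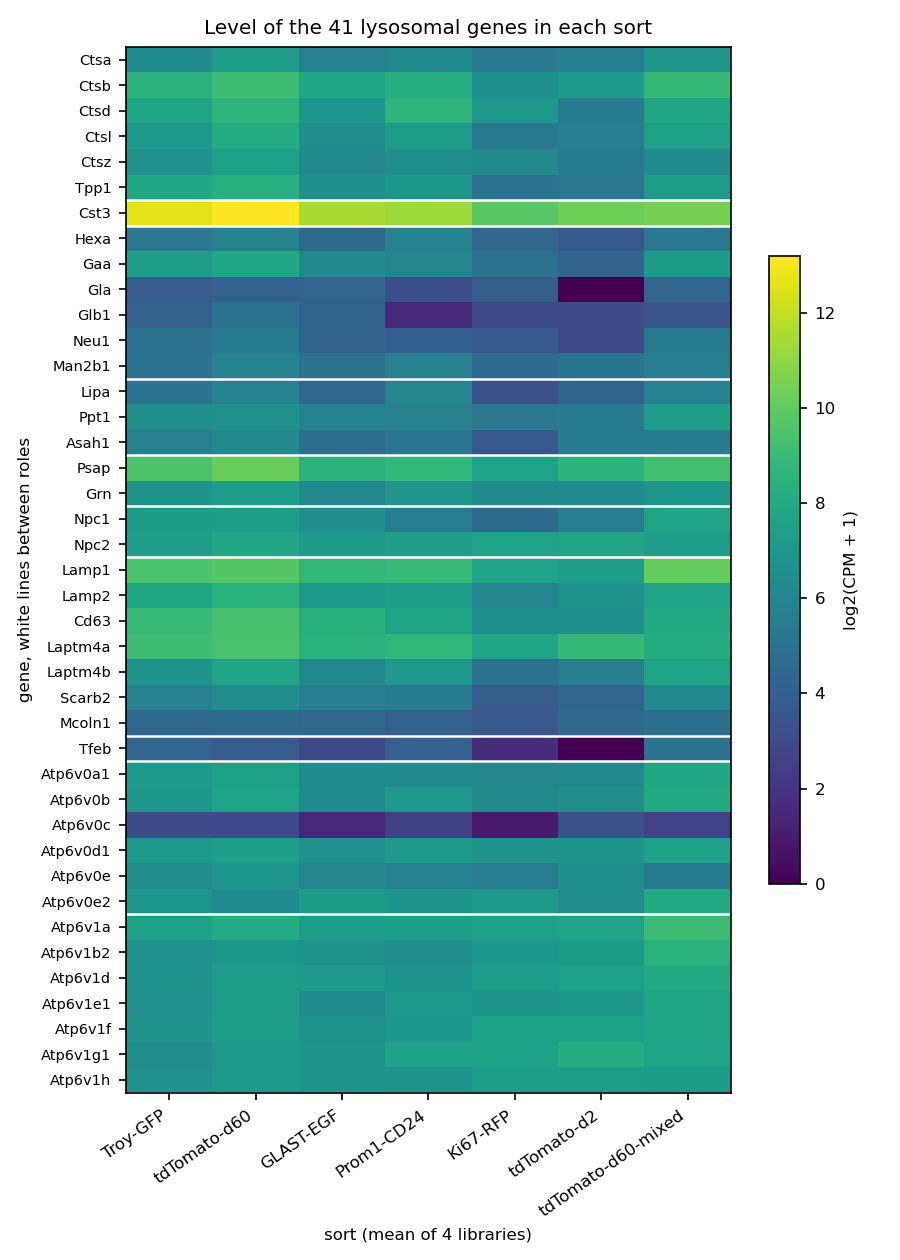
Mean level of each of the 41 lysosome genes over the 4 libraries of each of the 7 sorts, as colour on a log2(CPM + 1) scale, with genes grouped by role between white lines. Cst3 is brightest in tdTomato-d60 and Troy-GFP, at 9420 and 6420 CPM, and Tfeb and Gla are at 0 in tdTomato-d2.

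Dividing cells were first compared with the astroglia-rich Troy-GFP sort. Of the 36 members tested, 24 were lower and 4 higher in Ki67-RFP than in Troy-GFP at a limma adjusted p under 0.05. Over all 8396 genes tested, 28.9% were lower and 31.8% higher. The median log2 fold of the members was -1.04, against 0.07 for all genes. The 5 members not tested (Gla, Glb1, Mcoln1, Tfeb and Atp6v0c) stood below the filter on low sums, which here corresponded to about 19.5 CPM. Of the 36, Hexa, Lipa, Scarb2, Asah1 and Neu1 had means under that level in Ki67-RFP and passed the filter through Troy-GFP, so they could only differ downwards; among the 31 above it in both sorts, 23 were called. All 4 Ki67-RFP libraries lay below all 4 Troy-GFP libraries for 22 members (25.6% of all genes tested) and above them for 3 (27.5%).

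Among the 6 proteases, 5 were lower in dividing cells. Tpp1, a peptidase that trims tripeptides from protein ends, stood at 234, 198, 262 and 223 CPM in the Troy-GFP libraries and at 24, 19.9, 38.3 and 43 CPM in the Ki67-RFP libraries, a log2 fold of -2.87 ± 0.23 (SE; limma adjusted p = 4.34e-11). Ctsb, the cysteine protease cathepsin B, gave 358, 380, 334 and 374 CPM against 104, 112, 84 and 86 CPM, a log2 fold of -1.91 ± 0.14 (limma adjusted p = 1.10e-11). The libraries of the sorts did not overlap for either gene. Ctsl and Ctsa, a further cysteine protease and a serine carboxypeptidase, were lower by log2 folds of -1.84 ± 0.22 and -1.07 ± 0.24. Ctsd, the main aspartic protease, was only modestly lower, at -0.78 ± 0.18, and its Ki67-RFP libraries were spread from 83.6 to 174 CPM. Ctsz did not pass (-0.33 ± 0.20, limma adjusted p = 0.144). Cst3 showed one of the largest differences, from 7560, 6570, 6420 and 5140 CPM in Troy-GFP to 890, 747, 1060 and 954 CPM in Ki67-RFP, a log2 fold of -2.82 ± 0.11 (limma adjusted p = 2.09e-17).

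Ctsd was far higher in the few microglia-like cells of the dividing sort than in its other cells. The progenitor-like and neuroblast-like cells held 46 ± 9.12 and 36.1 ± 11.1 CPM of Ctsd, against 130 ± 45.6 CPM in the sort as a whole, and 8 of its microglia-like cells held 4490 per 1000000. Libraries 1 to 4 held 2, 2, 3 and 3 microglia-like cells and 83.6, 164, 174 and 98.9 CPM of Ctsd. The part of these cells in the spread between libraries was not tested. Without microglia-like, endothelial-like, pericyte-like and unnamed cells, the log2 fold of Ctsd from Troy-GFP to Ki67-RFP was -2.32 ± 0.20, and 24 members were again lower and 4 higher. The 12 microglial markers summed to 338 to 624 CPM in Ki67-RFP and to 3.79 to 28.6 CPM in Troy-GFP, where C1qb, Aif1, Ly86 and Cd74 stood at 0. The 9 endothelial markers moved the other way, with 638 to 1090 CPM in Troy-GFP and 0 to 12.5 in Ki67-RFP, where Flt1, Kdr and Esam were at 0.

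Of the glycosidases and lipid hydrolases called, Gaa and Ppt1 stood above the filter of about 19.5 CPM in both sorts. Hexa, Neu1, Asah1 and Lipa had Ki67-RFP means under it and could only differ downwards, so their values are a description. Gaa, which splits glycogen in the lysosome, stood at 165, 156, 162 and 136 CPM in Troy-GFP and 28.1, 25.8, 38.2 and 25.1 CPM in Ki67-RFP, a log2 fold of -2.38 ± 0.22 (limma adjusted p = 5.12e-10). Hexa, a subunit of the hexosaminidase that degrades gangliosides, and the sialidase Neu1 were lower as well (-0.98 ± 0.32 and -1.37 ± 0.40), while the mannosidase Man2b1 did not pass (-0.47 ± 0.29, limma adjusted p = 0.162). Asah1, the acid ceramidase, gave 38.3, 68.4, 67 and 35.8 CPM against 6.01, 13.9, 9.09 and 16.1 CPM, a log2 fold of -2.14 ± 0.41 (limma adjusted p = 6.83e-05). Both other lipid enzymes, the acid lipase Lipa and the thioesterase Ppt1, were lower too, at -1.82 ± 0.43 and -1.26 ± 0.22. Psap was lower by a log2 fold of -1.86 ± 0.13. Grn, which encodes the growth factor and lysosome protein progranulin, was called lower at -0.42 ± 0.18 (limma adjusted p = 0.0436), but the call was lost when any of 4 libraries was left out (libraries 1 or 2 of Ki67-RFP, 1 or 4 of Troy-GFP; -0.32 to -0.41, limma adjusted p of 0.0783 to 0.156).

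The pair of proteins that hands cholesterol out of the lysosome split. Npc1, the membrane transporter, stood at 138, 171, 122 and 141 CPM in Troy-GFP and at 20, 25.9, 27.3 and 25.1 CPM in Ki67-RFP, a log2 fold of -2.50 ± 0.24 (limma adjusted p = 1.07e-09). Npc2, the soluble carrier that loads it, stood at 158 ± 18.6 and 191 ± 20.2 CPM and did not pass (0.27 ± 0.14, limma adjusted p = 0.106). All 6 membrane proteins tested were lower in Ki67-RFP, among them Scarb2, which was under the filter there and could only differ downwards. The tetraspanin Cd63 gave 494, 497, 477 and 524 CPM against 82.2, 83.7, 108 and 109 CPM, a log2 fold of -2.37 ± 0.14 (limma adjusted p = 9.85e-14). Laptm4b gave 123, 108, 107 and 115 CPM against 36.1, 33.8, 20 and 30.4 CPM, a log2 fold of -1.93 ± 0.22 (limma adjusted p = 3.94e-08). No library of one sort reached the other for either gene. Its relative Laptm4a, also a membrane protein of late endosomes, was lower by less, at -1.33 ± 0.12. Lamp1, Lamp2 and the receptor Scarb2, which carries glucocerebrosidase to the lysosome, had log2 folds of -1.84, -1.80 and -1.90. Lamp2 lies on the X chromosome.

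The V-ATPase divided by its parts. Of the 5 tested V0 subunits, Atp6v0a1 (-1.01 ± 0.19), Atp6v0b (-0.74 ± 0.17) and Atp6v0e (-0.92 ± 0.21) were lower in dividing cells, while Atp6v0d1 (-0.22 ± 0.16) and Atp6v0e2 (0.15 ± 0.17) did not pass. Of the 7 V1 subunits none was lower. Atp6v1d (0.46 ± 0.15), Atp6v1f (0.69 ± 0.15), Atp6v1g1 (1.00 ± 0.17) and Atp6v1h (0.57 ± 0.17) were higher. Atp6v1g1, a stalk subunit, stood at 171, 161, 210 and 187 CPM in Ki67-RFP and 102, 91.2, 62 and 112 CPM in Troy-GFP (limma adjusted p = 1.70e-05). With the 2 Troy-GFP libraries of the Ki67-RFP flow cell alone, 22 members were lower and 2 higher (Atp6v1f and Atp6v1g1), with log2 folds of 0.47 for Atp6v1d and 0.54 for Atp6v1h at limma adjusted p of 0.0572 and 0.0508.

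**Figure D2:**
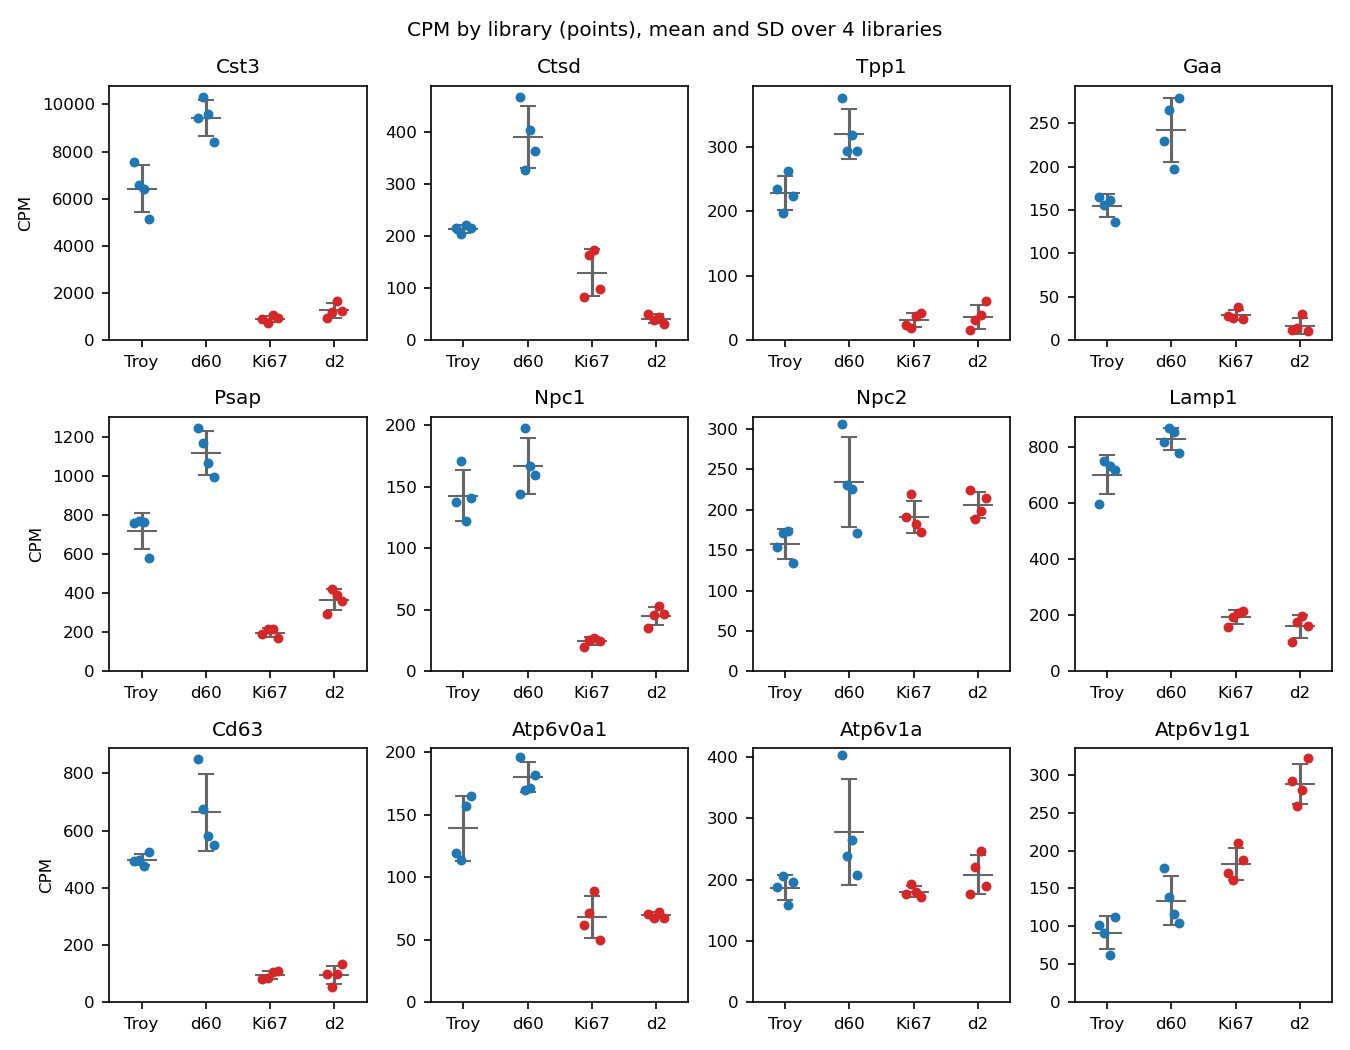
Level in CPM (linear axes that start at 0) of 12 lysosome genes in each of the 4 libraries of Troy-GFP, tdTomato-d60, Ki67-RFP and tdTomato-d2, 1 point per library. Tpp1 lies at 198 to 376 CPM in the first pair of sorts and at 15.6 to 60.6 CPM in the second, while Atp6v1g1 is higher in Ki67-RFP than in Troy-GFP and in tdTomato-d2 than in tdTomato-d60.

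Labelled cells were then compared at 60 and at 2 days after tamoxifen, in the same mouse line and in libraries that the comparison above did not use. No flow cell is named for the day-2 libraries, so a difference in sequencing run cannot be told apart from the day. Of 36 members tested, 25 were higher and 1 lower at day 60 at a limma adjusted p under 0.05. Over 7531 genes, 33.8% were higher and 34.7% lower. The members' median log2 fold was 1.48, against -0.05 for all genes. The same 5 members were not tested, at a filter of about 25.2 CPM. Hexa, Gaa, Lipa, Scarb2 and Neu1 had day-2 means under it and could only differ upwards, and 21 of the other 31 were called. All day-60 libraries lay above all day-2 libraries for 23 members (31.6% of all genes) and below them for 1 (30.8%).

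All 6 proteases and Cst3 were higher at day 60. Ctsd stood at 466, 327, 403 and 363 CPM at day 60 and at 51.4, 38.9, 44.6 and 32.1 CPM at day 2, a log2 fold of 3.18 ± 0.25 (limma adjusted p = 3.38e-09). Tpp1 gave 376, 294, 318 and 293 CPM against 15.6, 31.9, 39 and 60.6 CPM, a log2 fold of 3.15 ± 0.30 (limma adjusted p = 4.39e-08). Ctsl gave 303, 316, 260 and 243 CPM against 19.6, 53.2, 55.7 and 64.2 CPM, a log2 fold of 2.56 ± 0.27 (limma adjusted p = 1.92e-07). For these 3 proteases the days were apart in every library. Cst3 rose from 932, 1220, 1670 and 1250 CPM at day 2 to 9430, 10300, 9610 and 8390 CPM at day 60, a log2 fold of 2.91 ± 0.13 (limma adjusted p = 4.76e-12). Without microglia-like, endothelial-like, pericyte-like and unnamed cells the log2 fold of Ctsd was 3.48 ± 0.30, and 24 members were higher and 2 lower.

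Among the sugar-splitting enzymes, Gaa had the largest difference of any member. It stood at 229, 265, 197 and 279 CPM at day 60 and at 11.7, 14.1, 30.6 and 10.7 CPM at day 2, a log2 fold of 3.78 ± 0.38 (limma adjusted p = 8.92e-08). Neu1 gave 37, 50.6, 39.3 and 43.2 CPM against 7.82, 7.07, 11.1 and 0 CPM, a log2 fold of 2.71 ± 0.50 (limma adjusted p = 0.000114), and of 2.07 without library 4 of day 2. Both genes and Lipa had day-2 means under the filter, so they could only differ upwards. All 3 lipid hydrolases were called higher, Asah1 at 0.71 ± 0.30 with the weakest call (limma adjusted p = 0.0423). The call for Asah1 was lost when any of 6 libraries was left out (1, 2 or 4 of day 2, 1, 2 or 3 of day 60; 0.49 to 0.74). Psap (1.61 ± 0.14) and Grn (1.08 ± 0.21) were higher, as was Npc1 (1.82 ± 0.23), while Npc2 again did not pass (0.15 ± 0.18, limma adjusted p = 0.464).

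All 6 membrane proteins tested were higher at day 60, among them Scarb2, which was under the filter at day 2 and could only differ upwards. Lamp1 stood at 816, 866, 854 and 778 CPM at day 60 and at 106, 175, 199 and 161 CPM at day 2, a log2 fold of 2.37 ± 0.16 (limma adjusted p = 9.04e-10). Cd63 gave 849, 674, 580 and 551 CPM against 98.2, 53.2, 101 and 133 CPM, a log2 fold of 2.81 ± 0.23 (limma adjusted p = 7.33e-09). In both, each day-60 library exceeded each day-2 library several-fold. Of the V0 subunits, Atp6v0a1 (1.34 ± 0.18), Atp6v0b (1.13 ± 0.21) and Atp6v0d1 (0.49 ± 0.19) were higher. The call for Atp6v0d1 was lost when any of 4 libraries was left out (1 or 2 of either day; 0.34 to 0.48). Of the 7 V1 subunits none was higher, and 6 did not pass. Atp6v1g1 was lower at day 60, with 177, 139, 116 and 104 CPM against 291, 259, 280 and 322 CPM at day 2, a log2 fold of -1.12 ± 0.17 (limma adjusted p = 1.68e-05).

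**Figure D3:**
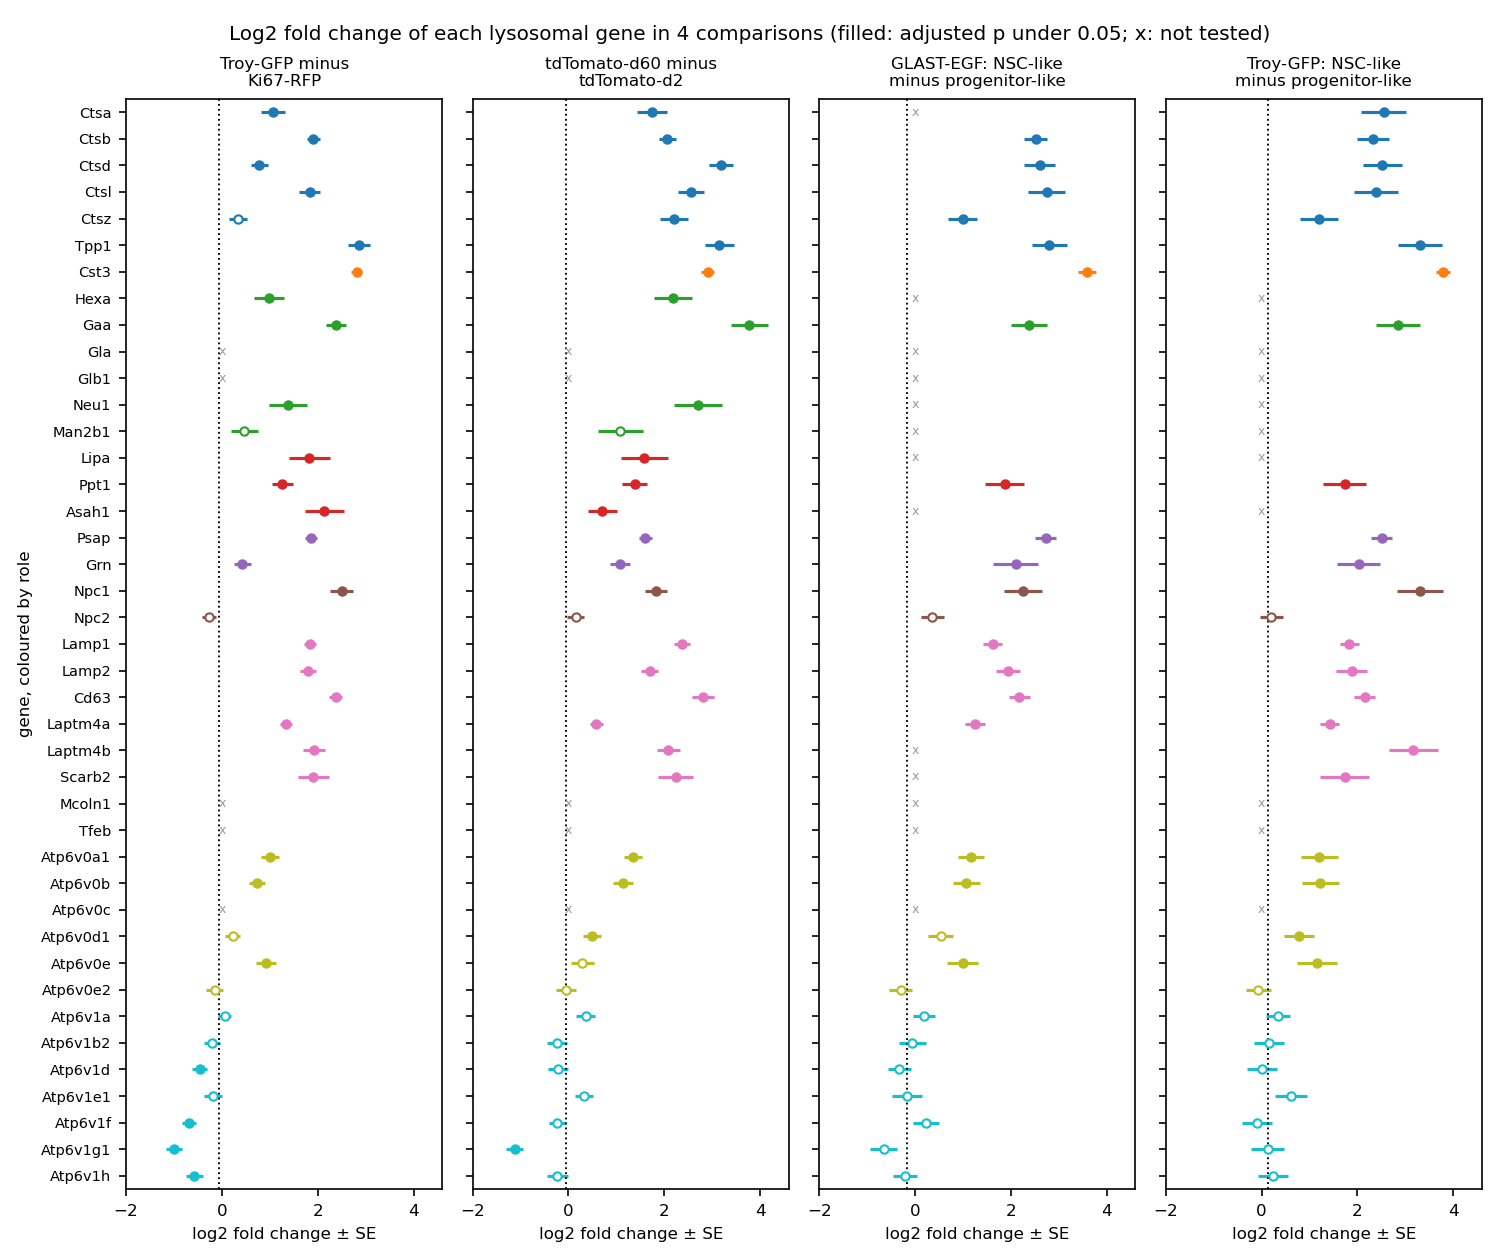
Log2 fold change of each lysosome gene in 4 comparisons: Troy-GFP minus Ki67-RFP, tdTomato-d60 minus tdTomato-d2, and NSC-like minus progenitor-like cells within GLAST-EGF and within Troy-GFP libraries. Filled points passed the test, crosses were not tested, and the dotted line is the median of all genes. V1 subunits sit near or below that line, and Cst3, Tpp1 and Gaa lie far above it in every panel.

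The sorts of dividing and of newly divided cells differed less from each other. In tdTomato-d2 against Ki67-RFP, 8 of 32 tested members were higher and 3 lower (limma), against 14.2% and 14% of 6982 genes, and the members' median log2 fold was 0.21 (all genes, 0.02). The higher members were Asah1 (1.94 ± 0.43), Laptm4a (1.06 ± 0.13), Atp6v0e (0.99 ± 0.22), Psap (0.89 ± 0.14), Npc1 (0.89 ± 0.28), Atp6v1g1 (0.66 ± 0.14), Lamp2 (0.64 ± 0.21) and Cst3 (0.47 ± 0.12). Ctsd (-1.55 ± 0.31), Ctsz (-1.03 ± 0.27) and Atp6v0e2 (-0.59 ± 0.19) were lower. The filter was about 23.2 CPM. Asah1 had a Ki67-RFP mean under it and could only differ upwards, so its value is a description. Gaa, which was not called, had a tdTomato-d2 mean under it. Of the 30 members above it in both sorts, 10 were called. Ctsd did not pass without microglia-like, endothelial-like, pericyte-like and unnamed cells (-0.55 ± 0.34, limma adjusted p = 0.232). Without library 3 of tdTomato-d2, 5 members were higher, and Ctsz, Cst3, Lamp2 and Npc1 lost their calls (limma adjusted p of 0.0526 to 0.122). Lamp2 also lost its call without library 1 or 2 of Ki67-RFP or 4 of tdTomato-d2, Npc1 without library 1 of Ki67-RFP, and Atp6v0e2 without library 4 of Ki67-RFP or 1 of tdTomato-d2.

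The 2 astroglia-rich sorts were then set against each other. Of 38 tested members, 17 were higher and 0 lower in tdTomato-d60 than in Troy-GFP, against 6.49% and 8.28% of 7914 genes tested by limma. All tdTomato-d60 libraries lay above all Troy-GFP libraries for 21 members (8.36% of all genes) and below them for 0 (10.1%). The members' median log2 fold was 0.53, against 0.00 for all genes, so the differences were smaller than those above. All 6 proteases were called, from Ctsl (1.00 ± 0.17) to Tpp1 (0.49 ± 0.14), as were Cst3 (0.55 ± 0.09), Psap (0.64 ± 0.12), Grn (0.57 ± 0.17), Gaa (0.63 ± 0.15) and Laptm4b (0.88 ± 0.15). Of the pump, Atp6v0b (0.66 ± 0.18) and Atp6v1e1 (0.68 ± 0.22) were called. With the 2 Troy-GFP libraries of the tdTomato-d60 flow cell alone, 7 members remained past the threshold, Ctsa, Ctsb, Ctsd, Ctsl, Cst3, Psap and Laptm4b, at log2 folds of 0.62 to 1.16. Without library 2, 3 or 4 of Troy-GFP, 11 members were called in each case. Calls were lost for Cd63 and Npc2 without any Troy-GFP library or library 1 or 2 of tdTomato-d60 (for Npc2 also 3), for Lamp2 without Troy-GFP 2 or 4 or tdTomato-d60 2, and for Tpp1 without Troy-GFP 1, 2 or 4 or tdTomato-d60 1. The same held for Grn (Troy-GFP 2 or 3, tdTomato-d60 1 or 3), Scarb2 (Troy-GFP 1, 3 or 4, tdTomato-d60 2 or 4), Atp6v0b (Troy-GFP 1 or 3, tdTomato-d60 2) and Atp6v1e1 (Troy-GFP 2, 3 or 4, tdTomato-d60 1, 2 or 3).

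The makeup of these sorts differed, with 401 to 805 CPM of microglial markers in tdTomato-d60 against 3.79 to 28.6 in Troy-GFP, and with progenitor-like cells in Troy-GFP. Without microglia-like, endothelial-like, pericyte-like and unnamed cells, 17 of 36 tested members were still higher and 0 lower. All genes then split into 865 higher and 851 lower calls. The median log2 fold was 0.51 for the members and 0.03 for all genes, and that of Ctsd was 0.61 ± 0.14 (limma adjusted p = 0.00134). Restricting both sorts to NSC-like cells left 3 of 36 tested members higher and 0 lower, against 2.47% and 3.07% (5.54% in either direction) of 6447 genes tested by limma. These were Ctsa (0.71 ± 0.20), Ctsl (0.63 ± 0.17) and Cst3 (0.40 ± 0.08). Cst3 alone kept its call without each single library: Ctsa lost it without library 1 or 4 of Troy-GFP or 1 or 2 of tdTomato-d60, and Ctsl without library 2 or 4 of Troy-GFP or 1 or 2 of tdTomato-d60. With the Troy-GFP libraries of 1 flow cell 1 member was called. Scaling over these 8 sums alone moved the split of all genes from 159 higher and 198 lower calls to 252 and 164, with 5 members higher. The members' median log2 fold within NSC-like cells was 0.22, against -0.02 for all genes. NSC-like cells fell into different clusters in the 2 sorts: 117 cells of Troy-GFP and 198 of tdTomato-d60 lay in a cluster led by Crym, and 69 and 22 in one led by Thbs4. Ctsd stood at 334, 287, 350 and 348 CPM in NSC-like Troy-GFP cells and at 389, 412, 404 and 414 in NSC-like tdTomato-d60 cells, without overlap but also without passing (0.29 ± 0.14, limma adjusted p = 0.244); of all genes tested, 4.95% had all tdTomato-d60 libraries above and 5.29% below. Within the Crym-led cells alone the gap of Ctsd was absent, with 340 ± 17.8 CPM of plain totals in Troy-GFP and 329 ± 8.25 in tdTomato-d60 (SD, n = 4 libraries, no test). The 3 called members kept higher means in tdTomato-d60 in these cells. Cst3 lay at 6900 to 11100 CPM in Troy-GFP and at 11600 to 12200 in tdTomato-d60, without overlap. Ctsl stood at 155 ± 45.4 and 233 ± 18.7 CPM, and Ctsa at 117 ± 34.7 and 166 ± 41.2, with overlap for Ctsa. The sorts also differ in mouse line, age and Y-linked level, which cannot be told apart from the sort.

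Quiescent astroglia and progenitors of the same libraries could be compared within GLAST-EGF (113 NSC-like and 72 progenitor-like cells), where both classes of a library share its sort and its sequencing. The classes were made from other genes of the same cells, so the p-values are too small. Of 28 tested members, 18 were higher in NSC-like cells and 0 lower, against 23.2% and 28.5% (51.7% in either direction) of 4418 genes tested by limma. The members' median log2 fold was 1.21, against -0.17 for all genes. The filter was about 58.8 CPM and left out 13 members, and 9 of the 28 (Ctsd, Ctsl, Ctsz, Tpp1, Gaa, Grn, Ppt1, Npc1 and Atp6v0e) had progenitor-like means under it, so they passed the filter through NSC-like cells and could only differ upwards. Of the 19 above it in both classes, 9 were called.

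Cst3 led again, at 9030, 7580, 6320 and 5790 CPM in NSC-like cells and 719, 493, 543 and 606 CPM in progenitor-like cells, a log2 fold of 3.59 ± 0.18 (limma adjusted p = 1.72e-16). Psap gave 1010, 786, 579 and 719 CPM against 138, 79.3, 114 and 121 CPM, a log2 fold of 2.73 ± 0.22 (limma adjusted p = 9.45e-12). Ctsb gave 507, 458, 460 and 387 CPM against 82.3, 50.8, 81.6 and 96.9 CPM, a log2 fold of 2.52 ± 0.24 (limma adjusted p = 3.51e-10). The classes were apart in all 4 libraries for each of them. Tpp1 stood at 268, 205, 188 and 242 CPM against 43.1, 33.9, 24.4 and 18.1 CPM (2.80 ± 0.37), and Ctsl at 278, 205, 202 and 104 CPM against 47.6, 16.9, 20.3 and 24.2 CPM (2.75 ± 0.38). Ctsd gave 278, 158, 285 and 248 CPM against 51.8, 11.3, 44.7 and 42.3 CPM, a log2 fold of 2.61 ± 0.32. These 3 proteases, like Gaa and Npc1, are among the 9 that could only differ upwards, so their values are a description. Gaa stood at 206, 168, 160 and 156 CPM against 38.8, 45.2, 16.2 and 30.2 CPM (2.38 ± 0.37). Npc1 stood at 175, 214, 111 and 202 CPM against 38.8, 11.3, 44.7 and 36.2 CPM (2.25 ± 0.40). Npc2 did not pass here either (0.36 ± 0.24).

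Of the V1 subunits 7 of 7 did not pass, with a median log2 fold of -0.16, close to that of all genes (-0.17). Atp6v1g1 came nearest to the threshold, at -0.65 ± 0.28 (limma adjusted p = 0.0509), with 82.3, 93.2, 104 and 63.4 CPM in NSC-like and 156, 108, 155 and 127 CPM in progenitor-like cells, without overlap. Of the V0 subunits, Atp6v0a1 (1.17 ± 0.28), Atp6v0b (1.07 ± 0.29) and Atp6v0e (1.00 ± 0.32) were higher in NSC-like cells. Without library 1 Atp6v0e did not pass (0.81, limma adjusted p = 0.0692), and without library 4 Ctsz did not (0.88, limma adjusted p = 0.05).

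The same comparison within Troy-GFP (214 NSC-like and 30 progenitor-like cells) was added after the class sizes had been seen, and it uses other libraries. There 22 of 31 tested members were higher and 0 lower, against 31.5% and 24.7% (56.2% in either direction) of 4138 genes tested by limma, with a median log2 fold of 1.73 (all genes, 0.13). At a filter of about 64.1 CPM, 12 of the 31 had progenitor-like means under it and could only differ upwards (the 9 named above with Ctsa, Laptm4b and Scarb2), and of the other 19 members 10 were called. With plain library totals as the scaling the median of all genes moved to -0.23 and that of the members to 1.25, with 19 higher; all genes then split into 1014 higher and 1501 lower calls, in place of 1303 and 1021. Cst3 (3.79 ± 0.15), Tpp1 (3.31 ± 0.45), Npc1 (3.31 ± 0.48) and Laptm4b (3.16 ± 0.51) had the largest folds, the last 3 of them among those 12. Laptm4b stood at 177, 160, 170 and 176 CPM in NSC-like cells and at 74.2, 9.5, 0 and 11.5 CPM in progenitor-like cells, and its log2 fold was 3.87 without library 1. Again 7 of 7 V1 subunits did not pass, with a median of 0.15. Scarb2, Atp6v0b, Atp6v0d1 and Atp6v0e lost their calls without single libraries (log2 folds of 0.61 to 1.17). With libraries 3 and 4 alone, 17 members were called. A test of whether the class difference itself differed between GLAST-EGF and Troy-GFP, run on 5720 genes, passed for 3 genes and for 0 of 32 members by limma, with 0 members at an unadjusted p under 0.05.

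These values are shares of each cell's RNA, and NSC-like cells held less of it. In GLAST-EGF they had 5112 ± 1301 transcripts per cell and progenitor-like cells 12652 ± 1137, and in Troy-GFP 5927 ± 1005 and 12802 ± 3712. Counted per cell, the balance of genes lay towards progenitor-like cells. In GLAST-EGF 66.5% of the genes tested lay below the progenitor-like level in all libraries and 7.38% above it, and in Troy-GFP 47.3% and 11.6%. Cst3 remained far higher per cell, at 32.3 transcripts in NSC-like and 6.80 in progenitor-like GLAST-EGF cells. Tpp1 (1.03 and 0.339), Ctsb (2.08 and 0.907), Psap (3.45 and 1.31) and Npc1 (0.800 and 0.378) were likewise higher per cell without overlap, as were Ctsd, Ctsl, Cd63 and Gaa, 9 of the 28 tested members in all. Of these, Tpp1, Npc1, Ctsd, Ctsl and Gaa had passed the filter through NSC-like cells alone, so their order is a description. Lamp1 (3.26 and 2.69) and Laptm4a (2.71 and 2.73) overlapped per cell.

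Per cell, all 7 V1 subunits had fewer transcripts in NSC-like than in progenitor-like cells in every GLAST-EGF library, where 66.5% of all genes did, for example Atp6v1a with 0.885 and 1.94, Atp6v1d with 0.596 and 1.96, and Atp6v1g1 with 0.402 and 1.57. Atp6v0e2 shared this order (0.631 and 1.96). In Troy-GFP, where fewer progenitor-like cells were sampled, Atp6v1f (0.602 and 1.49), Atp6v1h (0.616 and 1.23) and Atp6v0e2 (0.656 and 1.71) were apart. The other 5 V1 subunits overlapped, so 2 of 7 were below, against 47.3% of all genes. In NSC-like Troy-GFP cells 10 tested members were above, against 11.6% of all genes. Among them, Ctsd, Gaa, Grn, Npc1, Tpp1 and Ppt1 had passed the filter through NSC-like cells alone, so their order is a description.

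**Figure D4:**
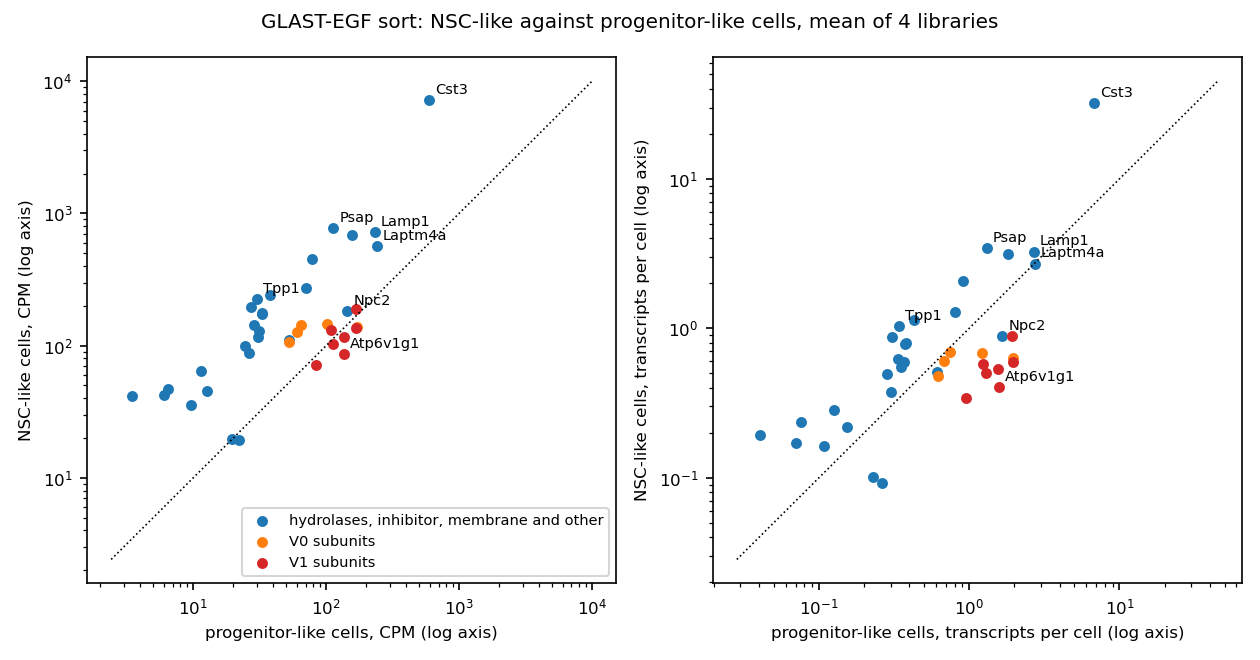
Level of each lysosome gene in NSC-like (vertical) against progenitor-like cells (horizontal) of GLAST-EGF, mean of 4 libraries, as CPM on the left and transcripts per cell on the right (log axes), with members at 0 in either class left out and a dotted line of equality. The V1 subunits lie near the line as shares of RNA and below it per cell, while Cst3 stays above it on both scales.

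NSC-like cells were not uniform. They fell into clusters led by Crym (117 cells in Troy-GFP, 198 in tdTomato-d60, 34 in GLAST-EGF) and by Thbs4 (69, 22 and 47 cells), among others. These values are a description of clusters made from other genes, with no test. In Troy-GFP the Thbs4-led cells held less Atp6v0a1 (71.7 CPM, 57.2 to 79.2 over libraries) than the Crym-led cells (186 CPM, 167 to 219). Npc1 showed the same order with 78.8 (59.7 to 94.3) and 214 (172 to 271), as did Laptm4b with 52.3 and 170, Ctsd with 153 and 340, and Tpp1 with 157 and 295. Ppt1 was the other way round, with 140 and 77.8 CPM and overlapping libraries. Cst3 (8280 and 8760) and Lamp1 (739 and 803) were close. In GLAST-EGF, Ctsd (140 and 328), Tpp1 (133 and 325), Npc1 (112 and 223) and Lamp1 (523 and 1000) had the same order without overlap, and Laptm4b overlapped between libraries. In tdTomato-d60, with 18 Thbs4-led cells in the 3 libraries that held at least 5, Tpp1 (149 and 361) and Npc1 (59.3 and 191) kept the order, while Ctsd did not (325 and 329).

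Microglia-like cells numbered 57, none of them in Troy-GFP. Genes that led their cluster included Csf1r, C1qb and Cx3cr1, but also Cd74, H2-Aa, H2-Ab1, Cybb and Lyz1. The name therefore does not set microglia apart from other macrophages. Of the 57 cells, 13 held transcripts of the B cell genes Cd79a or Cd79b and were set aside, 9 of them from the mixed sort. This left 44 cells with 180927 random barcodes from 6 sorts. Their levels are given per 1000000 barcodes with exact Poisson 95% intervals, which cover counting error only, and without a test. Ctsd stood at 2160 per 1000000 (1950 to 2380), against 333 (304 to 364) in NSC-like tdTomato-d60 cells and 42.6 (32.6 to 54.7) in progenitor-like Ki67-RFP cells. Grn stood at 1210 (1060 to 1380), 129 (111 to 149) and 37 (27.7 to 48.4) in the same order. Man2b1 showed the widest contrast to NSC-like cells among these, with 597 (490 to 721) and 32.1 (23.5 to 42.8). Ctsz (879 and 162), Ctsb (1540 and 535), Ctsa (492 and 168), Npc2 (652 and 202), Hexa (199 and 57.2) and Psap (1840 and 1060) were also above the NSC-like level, with intervals apart.

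Other members were not above the NSC-like level in the pooled cells. Cst3 (9390, 8950 to 9850) and Lamp1 (917, 783 to 1070) overlapped with NSC-like cells, at 9780 (9620 to 9950) and 888 (840 to 938). Cd63 (282 and 710), Gaa (77.4 and 235), Npc1 (82.9 and 199) and Laptm4b (11.1 and 206) were below the NSC-like level, with intervals apart. Of the paired V0 isoforms, Atp6v0e stood at 122 (76.2 to 184) and Atp6v0e2 at 11.1 (1.34 to 39.9) in microglia-like cells, against 128 and 86.4 in NSC-like cells. Levels also differed between the microglia-like cells of different sorts, so a pooled value depends on which cells were sampled. Ctsd stood at 4490 in the 8 cells of Ki67-RFP, at 2030 in the 6 of tdTomato-d60 and at 1740 in the 18 of the mixed sort. Cst3 stood at 14300 (12900 to 15800), 7580 (6770 to 8450) and 5170 (4570 to 5830) in the same order, above the NSC-like level in the first sort and below it in the other two. In the mixed sort, the largest group, Psap (1120, 853 to 1450), Hexa (116, 42.6 to 253) and Npc1 (77.5, 21.1 to 198) overlapped with NSC-like cells. Ctsd, Grn, Man2b1, Ctsz, Ctsb, Ctsa and Npc2 stayed above NSC-like cells in the pool of its cells. Libraries differed there too: over all 27 microglia-like cells of the mixed sort, Ctsd stood at 514, 0, 2900 and 96.9 CPM and Psap at 314, 621, 1170 and 194 CPM, against 1160 to 1460 CPM of Psap in the NSC-like tdTomato-d60 libraries. Lamp1 stood at 353, 539, 769 and 291 CPM in the same cells, below the 1040 to 1150 CPM of the NSC-like tdTomato-d60 libraries. Man2b1 was above those libraries in each library (235, 82.5, 384 and 96.7 against 20.2 to 55.9 CPM). A library or more lay below them for Ctsb (275, 875, 1710 and 293 against 601 to 728) and Ctsz (117, 248, 974 and 145 against 187 to 215). The same held for Ctsa (274, 82.5, 485 and 0 against 171 to 253), Grn (631, 415, 1220 and 48.3 against 137 to 185) and Npc2 (275, 290, 419 and 48.3 against 215 to 270).

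**Figure D5:**
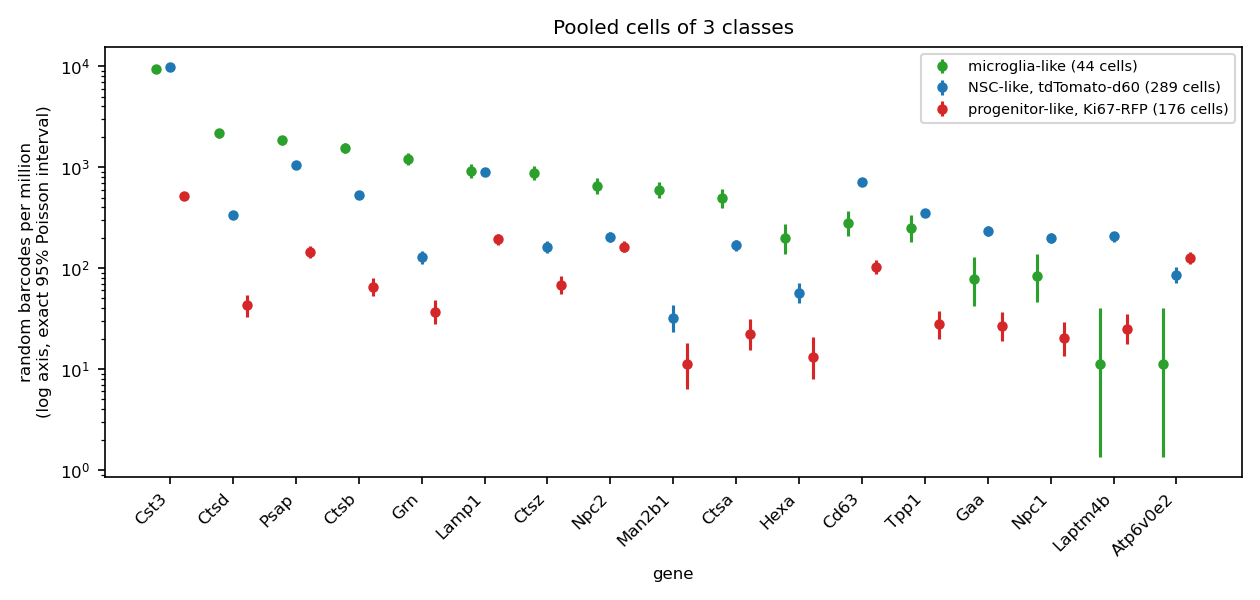
Levels of 17 lysosome genes per 1000000 random barcodes (log axis) in pooled microglia-like cells, NSC-like tdTomato-d60 cells and progenitor-like Ki67-RFP cells, with exact Poisson 95% intervals that cover counting error only. Ctsd, Grn and Man2b1 are far higher in the microglia-like cells, while Laptm4b, Gaa and Npc1 are higher in NSC-like cells.

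The mixed sort held the only larger groups of mature neuron-like (74) and oligodendrocyte-like (125) cells. In neuron-like cells Atp6v1a stood at 1130 ± 187 CPM, Atp6v1b2, its partner in the catalytic ring, at 772 ± 148 and Atp6v1d at 528 ± 141 (SD, n = 4 libraries), against 361 ± 64.7, 196 ± 28.1 and 250 ± 38.8 in oligodendrocyte-like cells of the same libraries. Atp6v0a1 followed with 464 ± 96.9 and 175 ± 28.6. In neuron-like cells Ctsd stood at 129 ± 62.5, Ctsz at 7.17 ± 5.19 and the protease inhibitor Cst3 at 312 ± 223 CPM. Oligodendrocyte-like cells had the most Lamp1 of the named classes of the mixed sort (2170 ± 226) and 410 ± 62.1 CPM of Npc1. These class levels are descriptions, with no test.

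Values of 2 pairs of related members, Laptm4a with Laptm4b and Atp6v0e with Atp6v0e2, are given side by side, and no difference within a pair was tested. Laptm4a stood at 608, 532, 509 and 554 CPM in Troy-GFP, 219, 237, 182 and 239 in Ki67-RFP, 740, 694, 692 and 603 in tdTomato-d60 and 410, 424, 484 and 495 in tdTomato-d2. From day 2 to day 60 its log2 fold was 0.58 ± 0.13, while that of Laptm4b was 2.08 ± 0.24, from 39.1, 31.8, 61.3 and 64.1 to 238, 216, 202 and 187 CPM. Atp6v0e stood at 72.9, 110, 91.8 and 88.3 CPM in Troy-GFP and 42.1, 57.7, 56.4 and 35.8 in Ki67-RFP, without overlap, and at 181, 110, 78.6 and 110 against 118, 74.3, 89.2 and 99.8 at days 60 and 2, with overlap. Atp6v0e2 stood at 109, 93.1, 137 and 153 CPM in Troy-GFP, 145, 121, 111 and 158 in Ki67-RFP, 100, 90.2, 62.4 and 86.8 at day 60 and 70.5, 92.2, 94.8 and 89 at day 2, and passed in neither comparison. Its small log2 folds changed sign under some settings, from 0.15 to -0.13 in Ki67-RFP against Troy-GFP with 1 flow cell and from -0.06 to 0.029 at day 60 against day 2 with median-of-ratios scaling. In neuron-like cells Atp6v0e2 stood at 432 ± 85.8 CPM and Atp6v0e at 14.7 ± 12.7.

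Tfeb itself was near the limit of detection and was tested in none of the comparisons. It stood at 7.65, 20.9, 32.2 and 14.3 CPM in Troy-GFP and 13, 6.59, 23.1 and 10.8 CPM in tdTomato-d60. In Ki67-RFP it stood at 2.00, 1.99, 3.63 and 1.79 CPM, below every Troy-GFP library, and in tdTomato-d2 it was 0 in all 4 libraries, which allows up to 2.55 CPM (3 transcripts over the sort). It was 0 in all progenitor-like cells of GLAST-EGF (up to 3.34 CPM) and Troy-GFP (up to 8.37 CPM). Its highest mean was in the mixed sort, 31.9 ± 3.03 CPM, where oligodendrocyte-like cells held 79.4 ± 21.7 CPM.

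Genes of the same organelle outside the 41 were counted with the same test, against 28.9% lower and 31.8% higher over all genes tested. Unlike for the members, genes that passed the filter through 1 group alone were not counted apart. Such genes could only differ in 1 direction, so these counts are a description. Ctss and Laptm5, named below, had Troy-GFP means under the filter of about 19.5 CPM and could only differ upwards. Whether the other genes named below passed through 1 group alone is not given, so their folds are a description too. In Ki67-RFP against Troy-GFP, 17 of 24 other hydrolases tested by limma were lower and 2 higher (median log2 fold -1.06). Ctso (-3.66 ± 0.37), a cysteine protease, and Naaa (-4.55 ± 0.51), an amidase of lipid ethanolamides, were among the lower ones. One of the higher ones was Ctss, a cathepsin of phagocytes, with 120 CPM in Ki67-RFP and 1.24 in Troy-GFP. It stood at 4850 per 1000000 in microglia-like cells and at 9.78 in progenitor-like Ki67-RFP cells. Of 20 other membrane proteins 12 were lower and 3 higher (median -0.71), with the channel Tpcn1 (-2.57 ± 0.27) and the peptide transporter Abcb9 (-2.51 ± 0.45) among the lower and Laptm5, a gene of blood cells (55 and 2.99 CPM), among the higher. Of 7 other V-ATPase genes 4 were lower and 0 higher (median -0.65), including Atp6v0a2, an isoform of the V0 a subunit (-1.38 ± 0.34), Dmxl1, a regulator of pump assembly (-1.31 ± 0.18), and the accessory subunit Atp6ap1 (-1.16 ± 0.25). At day 60 against day 2, 18 of 23 other hydrolases, 12 of 17 membrane proteins and 5 of 7 V-ATPase genes were higher and 0 lower, against 33.8% and 34.7% of all genes. The protease Ctsf (3.42 ± 0.45) and the channel Tpcn1 (3.78 ± 0.44) were among them.

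The machinery around the lysosome was counted last, and many of its shares lie near those of all genes (28.9% lower and 31.8% higher in Ki67-RFP). Here too, genes that passed the filter through 1 group alone were not counted apart, so the counts are a description. Wipi1, for one, had a Ki67-RFP mean under the filter of about 19.5 CPM and could only differ downwards. For most other genes named below this is not given, and their folds are a description too. Of 23 genes of hydrolase delivery tested in Ki67-RFP against Troy-GFP, 7 were lower and 3 higher, with a median log2 fold of 0.05. The sorting receptors Sorl1 (-4.87 ± 0.58) and M6pr (-1.51 ± 0.28) and the endocytic receptor Lrp1 (-2.26 ± 0.18) were lower. Of 16 genes of TFEB relatives and the mTORC1 anchor 5 were lower and 3 higher (median 0.10), with Flcn, which restrains TFEB, at -1.45 ± 0.29. Of 22 autophagy genes 4 were lower and 7 higher (median 0.03). Sqstm1, the autophagy adaptor p62, stood at 267 ± 20.8 CPM in Troy-GFP and 119 ± 14.9 in Ki67-RFP (-1.17 ± 0.14), and Wipi1, which binds the forming autophagosome, at 42.7 ± 2.37 and 8.15 ± 4.46 (-2.42 ± 0.42). At day 60 against day 2, 5 delivery genes were higher and 6 lower of 21, 5 autophagy genes higher and 6 lower of 21, and 3 TFEB and mTORC1 genes higher and 3 lower of 13, against 33.8% and 34.7% of all genes. Of the 6 other protease inhibitors tested, 4 were lower in Ki67-RFP and 1, the cystatin Cstb, higher; the lower ones included Timp3 (-5.91 ± 0.32) and Serpine2 (-4.54 ± 0.28), inhibitors of extracellular proteases. Within GLAST-EGF, where 23.2% of all genes were higher and 28.5% lower, NSC-like cells were higher for 6 of 7 other hydrolases, 4 of 7 membrane proteins, 2 of 5 V-ATPase genes, 4 of 15 delivery genes, 1 of 11 autophagy genes and 0 of 8 TFEB and mTORC1 genes tested, where Lamtor5 was lower (-1.15 ± 0.43).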

How the data were processed

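Single cells of 28 libraries were profiled by SORT-seq in 7 sorts of 4 libraries. The deposited tables hold, per the file values, the authors' estimated transcripts per gene and well (an estimated count corrected for collisions among 256 random barcodes, not a raw count). Reads had been aligned with BWA 0.6.2-r126 to mm10, per the submitters' processing notes; the counting step is not given in the sources used here. Wells with at least 1000 transcripts without spike-ins were kept as cells (1789 of 2688), no doublets were removed, and ERCC spike-ins took 6.57% to 17.7% of transcripts, or 44.3% to 56.8% in Prom1-CD24.

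Sums over the cells of a library were scaled by TMM, filtered on low sums and tested with limma 3.58.1 (voom, R 4.3.3), with Benjamini-Hochberg adjustment over all genes tested. A value beside a log2 fold is its SE (n = 4 libraries a group), and one beside a level its SD. Cells were clustered with scanpy 1.11.5 (2000 variable genes, 30 components, 15 neighbours, resolution 1.0, seed 7) without 117 cell cycle and 196 lysosome genes. A cluster was named where at least 3 markers stood among its 100 leading genes; 30 were used at first, and this was changed after the clusters were seen. Class sums needed 5 cells per library and class, and the library was a block in comparisons within a sort. The same-numbered libraries of different sorts were not paired by the labels.

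Tests planned for microglia-like cells were not used, because on simulated data the test called many unchanged genes. The planned count model was not used because the values are not counts, and the planned comparison of paralog proteins was not made. The script was tested on simulated data, with the same spread set for every gene. In the comparisons used, it recovered 34.4% to 51% of genes changed by a log2 fold of 1. For a log2 fold of 2 it recovered 93.9% to 100%, and 3.27% to 6.34% of its calls were false. A member that did not pass may therefore still differ by a log2 fold of 1. Values in every library are given for the 8 members with the largest folds among those passing in the comparisons of Ki67-RFP with Troy-GFP, of day 60 with day 2 and of the GLAST-EGF classes, for the pairs Laptm4a and Laptm4b, and Atp6v0e and Atp6v0e2, and for Tfeb. From the lists of other lysosome genes the 3 passing genes with the largest folds could be named; Cstb, and the cell classes and clusters described without a test, were chosen after their values were seen. Values of some genes in those lists are not reported here. The members and all lists were chosen with earlier results of these data known. Floors for a level of 0 use 3 transcripts over the group, and intervals and floors cover counting error only.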

Additional observations from a re-analysis of the deposited data

Results flagged for a closer look

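In 187 groups of 4 libraries of a sort or class, the highest or lowest library was checked for a gap to the nearest other library above Dixon's 95% critical value, as a share of the group's range. It was found in 10, and chance gives about 1 in 20 groups. The explanation was tested for none of them.

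In Prom1-CD24, the sort with the fewest cells, library 3 stood above the others for Ctsb (464 CPM against 238, 264 and 230) and for Laptm4a (791 against 293, 304 and 283). In Troy-GFP, library 4 stood below the others for Ctsl (95.5 CPM against 150, 158 and 161) and for Psap (581 against 759, 771 and 767). In tdTomato-d2, library 3 had the most Gaa (30.6 CPM against 11.7, 14.1 and 10.7). Tfeb stood apart in library 3 of Ki67-RFP (3.63 CPM against 2.00, 1.99 and 1.79) and in library 4 of the mixed sort (36.4 against 29.8, 30.5 and 30.8). Among progenitor-like cells of Troy-GFP, 30 in all, the highest library was library 2 for Ctsl (86 CPM against 24.7, 12.6 and 23), library 1 for Laptm4b (74.2 against 9.50, 0 and 11.5) and library 4 for Atp6v0e (104 against 37, 47.5 and 38).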

How the results depend on the processing

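Member counts outside 1.5 times the reported ones were as follows. With each cell thinned to 1000 transcripts, 0 members were higher and 8 of 14 tested lower in Ki67-RFP against Troy-GFP (reported, 4 and 24), 15 were higher at day 60 against day 2 (25), 2 higher and 0 lower in tdTomato-d2 against Ki67-RFP (8 and 3), 2 higher in tdTomato-d60 against Troy-GFP (17), 1 within NSC-like cells (3), 5 in the GLAST-EGF classes (18) and 6 in the Troy-GFP classes (22); fewer members passed the filter then, so depth limits these counts. With 1 flow cell, the counts were 2 higher in Ki67-RFP, 7 in tdTomato-d60 against Troy-GFP and 1 within NSC-like cells. Means of per-cell CPM gave 3 lower at day 60 (1) and 6 higher in tdTomato-d60 against Troy-GFP. Without microglia-like, endothelial-like, pericyte-like and unnamed cells, 2 were lower at day 60. Within NSC-like cells, 5 were higher with TMM over the compared libraries or with observed random barcodes, and 1 at resolution 1.5 or with naming from 30 leading genes. In the GLAST-EGF classes, 28 were higher without a filter. In that comparison 1 member was lower with library totals, with TMM over the compared libraries, at resolution 0.6, with cell cycle genes kept, with no replicate block, or with neuroblast-like cells added, and 2 with naming from 30 leading genes (reported, 0). The cause of these shifts was not tested.

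With 1 library left out in turn, higher and lower counts ranged from 4 to 4 and 23 to 24 in Ki67-RFP against Troy-GFP, 22 to 26 and 1 to 2 at day 60 against day 2, 5 to 9 and 2 to 3 in tdTomato-d2 against Ki67-RFP, 11 to 20 and 0 to 0 in tdTomato-d60 against Troy-GFP, 1 to 4 and 0 to 0 within NSC-like cells, 17 to 19 and 0 to 0 in the GLAST-EGF classes, and 19 to 22 and 0 to 0 in the Troy-GFP classes.

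Sign changes were checked for the members called in a comparison and for Laptm4a, Laptm4b, Atp6v0e and Atp6v0e2, and not for other members that did not pass. Among those checked, the only folds that changed sign were those of Atp6v0e2, none of which passed the test. They were -0.13 (reported, 0.15) in Ki67-RFP against Troy-GFP with 1 flow cell, and 0.029 with median-of-ratios scaling and 0.15 without the microglia-like and other cells named above at day 60 (-0.06), where leaving out 1 library gave -0.143 to 0.077. In the Troy-GFP classes (-0.07) they were 0.0067 with limma trend, and -0.15 to 0.0518 with 1 library left out. For the members checked, called or not, each setting was also compared with the reported sign and outcome of the test. Settings in which a member was not tested were left out, such as many of those with thinned cells. Both held in 571 of 591 values in Ki67-RFP against Troy-GFP, 523 of 544 at day 60 against day 2, 212 of 230 in tdTomato-d2 against Ki67-RFP, 330 of 417 in tdTomato-d60 against Troy-GFP, 129 of 151 within NSC-like cells, 316 of 325 in the GLAST-EGF classes and 371 of 394 in the Troy-GFP classes. Plain library totals moved the median log2 fold of all genes at day 60 from -0.05 to -0.19.

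Replicate numbers did not pair the libraries of different sorts (correlations of same-numbered libraries from -0.027 to 0.068). With the replicate block, higher and lower counts were 4 and 24, 24 and 1, 8 and 3, 19 and 0, and 3 and 0, in the order above. The quasi-likelihood count model and all tests of microglia-like cells planned with their alternatives were not run.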
